A study of Mus musculus with 93 samples.

Results

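The genes described here encode the MHC class II presentation pathway in mouse liver. They are H2-Aa, H2-Ab1, H2-Eb1, H2-DMa, H2-DMb1, H2-DMb2, Cd74 and Ciita, 8 of the 53465 genes in the count table, chosen by name and matched to their Ensembl identifiers. All 8 passed the filter on low counts and are among the 19110 genes tested.

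MHC class II molecules display peptides from endosomes on the cell surface, where CD4+ T cells read them. H2-Aa and H2-Ab1 encode the alpha and beta chains of the I-A molecule, and H2-Eb1 encodes the beta chain of the I-E molecule, whose alpha chain comes from H2-Ea (annotated as H2-Ea-ps in the C57BL/6J reference). Cd74, the invariant chain, binds new class II molecules and escorts them to endosomes. H2-DMa pairs with the product of H2-DMb1 or H2-DMb2 to form H2-M, which removes the invariant chain remnant and edits the bound peptide, while H2-Oa and H2-Ob form its inhibitor H2-O. Ciita is the transactivator that switches on these genes. In liver the pathway is known from dendritic cells, Kupffer cells, recruited macrophages and B cells, and it can be induced by interferon gamma. Its classical genes are among the most polymorphic of the mouse genome. C57BL/6J and 129 strains carry the b haplotype, in which H2-Ea is not expressed and no I-E reaches the surface. A/J carries class II genes of the k type and DBA/2J the d haplotype, and no haplotype is given for the wild-derived strains in the sources used here.

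Liver RNA was sequenced from 93 male mice of 7 inbred strains, all housed at thermoneutrality (30 °C) from 6 wk of age. From 7 wk of age they ate a control diet (CD, 10% of calories from fat) or a Western diet (WD, 40%) for 17 wk, and livers were taken at 24 wk. On CD there were 8 C57BL/6J, 7 129S1/SvImJ, 5 A/J, 6 DBA/2J, 6 WSB/EiJ, 7 CAST/EiJ and 6 PWK/PhJ mice, and on WD there were 8, 6, 6, 7, 6, 8 and 7. The mice carried no engineered allele and differed by strain, diet and cohort, of which there were 7. Each sample was 1 mouse, and mice were caged 2 to 5 together. Cohort is partly tied to strain, and the 2 WSB/EiJ cohorts held no other strain.

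Reads assigned to genes ranged from 40020424 to 49894856 per mouse (median 46618609). Levels are given as CPM, the reads on a gene scaled to that library's total on the genes that passed the filter, after trimmed-mean (TMM) normalization. The summed level of the 5 hepatocyte markers measured lay between 55000 and 208000 CPM, so the markers of the labelled tissue were abundant in every library. Reads of all strains were aligned to the C57BL/6J genome. Unmapped reads averaged 2.23% of the library in C57BL/6J on CD, 4.52% in WSB/EiJ and 10.8% in CAST/EiJ. A lower count in another strain and a failure of its reads to align cannot be told apart from these counts, whereas the comparison of diets within a strain uses the same alleles on both sides. In bulk tissue, fewer cells of a type and less RNA per cell cannot be told apart either.

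H2-Aa (chr17:34282744-34287823), H2-Ab1 (chr17:34257689-34269419), H2-Eb1 (chr17:34305867-34316674), H2-DMa (chr17:34119541-34139101), H2-DMb1 (chr17:34153072-34160230) and H2-DMb2 (chr17:34143307-34151555) lie in the MHC in GRCm38, H2-Aa on the minus strand and the others on the plus strand. Cd74 and Ciita lie outside the MHC, Ciita at chr16:10480059-10528418 on the plus strand. H2-DMb1 and H2-DMb2 are close copies: 94.6% of the aligned bases of their longest transcripts were identical, and 22.7% of the 50-base windows of H2-DMb1 and 24.8% of those of H2-DMb2 occur in the other gene. A read that lies within such a window matches both genes, so their counts are less certain than those of the other members. H2-DMa shares 360 exonic bases (10.4% of its exons) with Brd2 on the opposite strand and Ciita shares 329 (3.45%) with Dexi, and whether counting used strand is not given in the sources used here.

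Class II promoters are known for a conserved module in which RFX binds the X box and NF-Y the Y box, and Ciita acts through the factors bound there. Of the 8 members, 5 had a promoter entry in RefSeq (GRCm38.p6), covering the 250 bases before the annotated start. That start can differ from the gene coordinates given above. The printed stretch of H2-DMb2 lies inside its gene span, and that of H2-DMb1 overlaps the start of its span. The sequences below are shown because the genes are known to be regulated together through this module. Not every sequence holds both cores searched. Capitals mark an X box core (AG, any base, AAC, any 2 bases and ATG, printed with the 2 bases before it) and a Y box core (ATTGG). The letters were chosen after these promoters had been read, and a match is a description of the C57BL/6J reference, not a bound site. H2-Ob and H2-Eb2 are related genes outside the 8.
H2-Eb1, plus strand, chr17:34305748-34305832: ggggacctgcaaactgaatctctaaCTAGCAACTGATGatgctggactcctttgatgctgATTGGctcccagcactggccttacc
H2-DMb1, plus strand, chr17:34153069-34153154: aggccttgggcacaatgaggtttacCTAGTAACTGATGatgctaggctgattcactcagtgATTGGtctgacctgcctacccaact
H2-DMb2, plus strand, chr17:34145099-34145183: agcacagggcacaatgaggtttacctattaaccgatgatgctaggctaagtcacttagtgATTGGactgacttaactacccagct
H2-Aa, minus strand, chr17:34287847-34287931: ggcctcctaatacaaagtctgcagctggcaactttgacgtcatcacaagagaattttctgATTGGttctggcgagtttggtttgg
H2-Eb2, plus strand, chr17:34325515-34325599: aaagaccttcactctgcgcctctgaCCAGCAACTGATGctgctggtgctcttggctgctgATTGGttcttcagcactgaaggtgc
H2-Ob, plus strand, chr17:34238790-34238872: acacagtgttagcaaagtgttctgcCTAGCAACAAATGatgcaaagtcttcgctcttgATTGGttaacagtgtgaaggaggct

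The X box core followed by the Y box core on the transcribed strand was found in 4 of 32851 promoters (0.0122%), those of H2-Eb1, H2-DMb1, H2-Eb2 and H2-Ob. The gap between the boxes was 22 bases in H2-Eb1, 23 in H2-DMb1, 22 in H2-Eb2 and 20 in H2-Ob. H2-DMb2 and H2-Aa held the Y box core without the X box letters searched. So did the related gene H2-Oa, not printed. H2-DMa, not printed, had 2 entries, of which one held neither core and the other held a Y box core starting at -198 and no X box core. Searched on both strands, the Y box core alone was found in 33.8% of all promoters and the X box core alone in 0.712%.

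On CD, Cd74 was the most abundant member per kilobase of exon, at 68.1 CPM per kb in C57BL/6J against 19.7 for H2-Eb1 and 0.234 for Ciita. The level of every member differed between strains on CD and on WD (limma-voom F tests, adjusted p from 8.50e-15 for H2-Eb1 to 4.75e-04 for H2-DMa on CD), as did 93.7% and 93.9% of all genes tested. WSB/EiJ had the lowest mean of each member on CD. Summed over the 8 genes, WSB/EiJ mice on CD lay between 48.7 and 111 CPM (median 76.2), while C57BL/6J mice lay between 132 and 656 (median 233). The C57BL/6J range was wide enough to take in the medians of DBA/2J (213), CAST/EiJ (167) and 129S1/SvImJ (160).

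**Figure D1:**
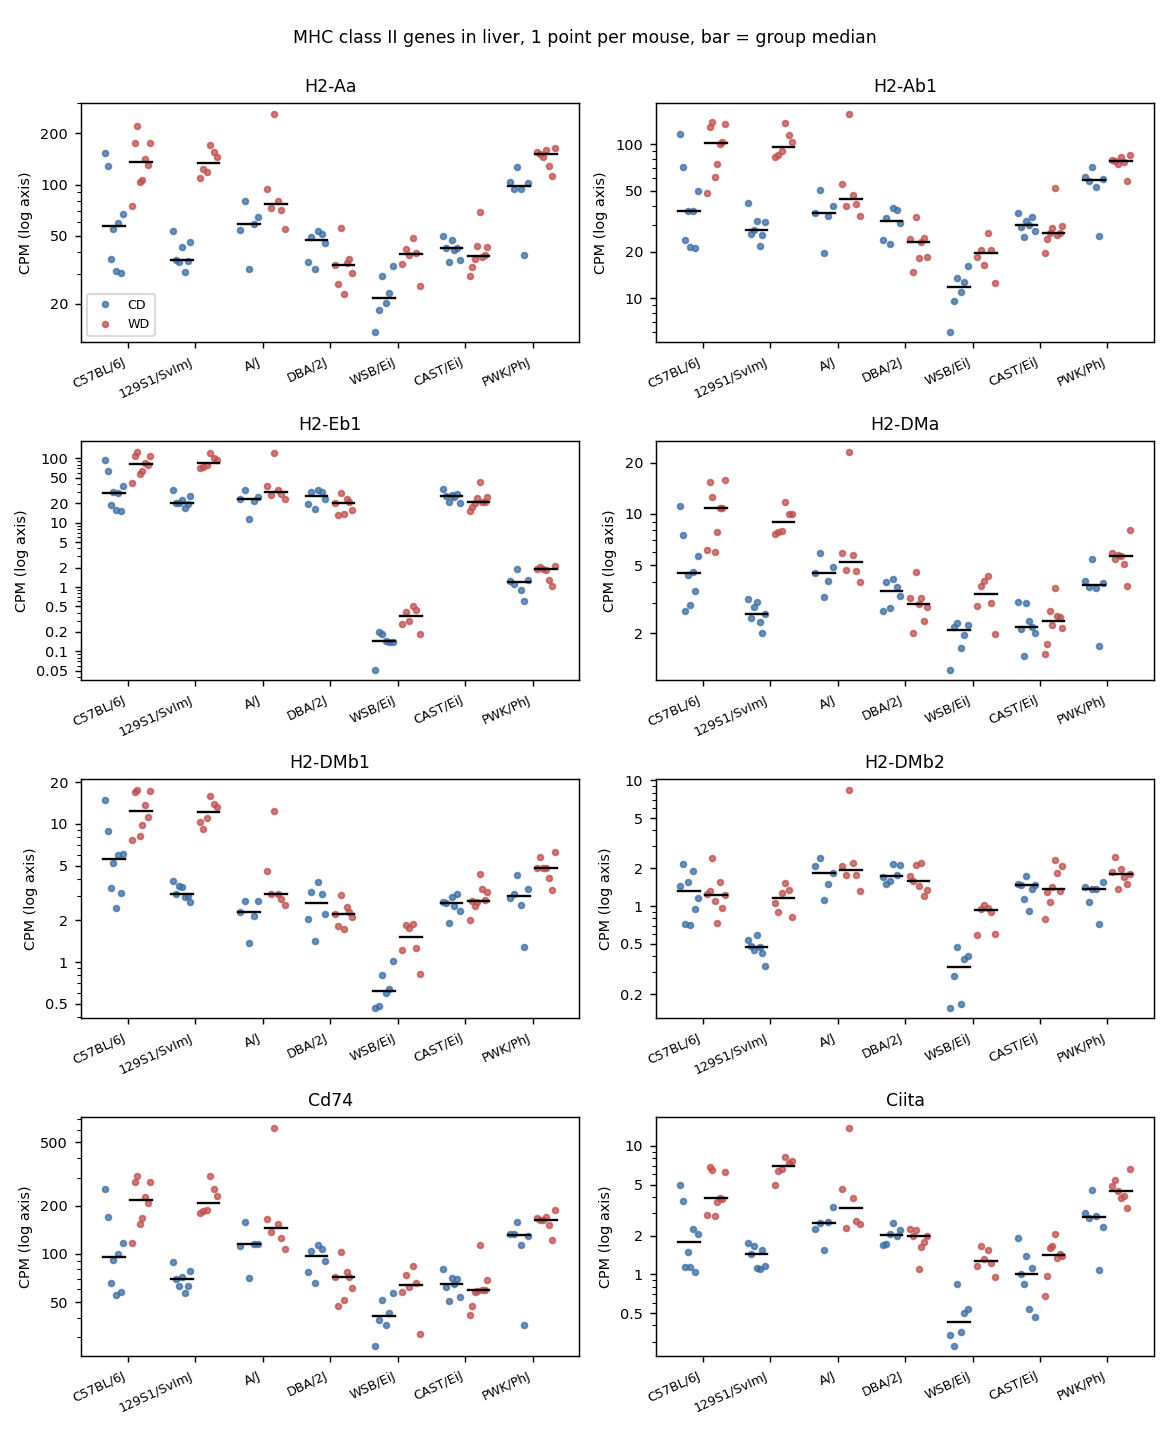
CPM of each class II gene on a log axis, by strain and diet, with 1 point per mouse and a bar at the group median. H2-Eb1 in WSB/EiJ and PWK/PhJ lies far under the other strains, and in 129S1/SvImJ the WD mice lie above the CD mice in each of the 8 panels.

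Strains were put in order by their mean log2 CPM on CD, and neighbours in that order were compared. For the I-A chain H2-Aa the order was PWK/PhJ, C57BL/6J, A/J, DBA/2J, CAST/EiJ, 129S1/SvImJ and WSB/EiJ. In PWK/PhJ mice lay between 38.4 and 127 CPM (n = 6). The mean was 70.4 ± 46.4 CPM (SD, n = 8) in C57BL/6J, in 129S1/SvImJ 39.9 ± 7.74 (n = 7) and in WSB/EiJ 22.9 ± 7.17 (n = 6). Only the step from 129S1/SvImJ to WSB/EiJ passed the test between neighbours in that order (two-sided exact permutation test, adjusted p = 0.028 over 48 pairs of neighbours). H2-Ab1 had the same order and the same single step past the test, with 129S1/SvImJ mice at 21.9 to 41.6 CPM and WSB/EiJ mice at 6.08 to 16.2. For H2-DMa and Ciita no neighbours differed by this test, so their order is not resolved step by step.

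For the invariant chain, Cd74, the order by mean log2 CPM was A/J, PWK/PhJ, C57BL/6J, DBA/2J, 129S1/SvImJ, CAST/EiJ and WSB/EiJ. In CPM, A/J at 114 ± 31.4 (SD, n = 5), PWK/PhJ at 117 ± 42.5 (n = 6) and C57BL/6J at 114 ± 68.7 (n = 8) overlapped, so their order is not resolved. CAST/EiJ was at 64.4 ± 10.1 CPM (n = 7) and WSB/EiJ at 42.1 ± 10.9 (n = 6), and only the step between those passed (exact permutation test, adjusted p = 0.04). The transactivator Ciita ran from 2.77 ± 1.13 CPM in PWK/PhJ (n = 6) to 0.474 ± 0.203 in WSB/EiJ (n = 6), where it rested on 11 to 32 reads a mouse.

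For the I-E beta chain, PWK/PhJ and WSB/EiJ lay apart from the other strains. H2-Eb1 was at 15.1 to 95.6 CPM in C57BL/6J on CD, and the CD mice of 129S1/SvImJ, A/J, DBA/2J and CAST/EiJ lay between 11.5 and 33.2. In PWK/PhJ it was at 0.613 to 1.93 CPM, which is 29 to 96 reads a mouse, and in WSB/EiJ at 0.052 to 0.203 CPM, which is 2 to 8 reads. Neither overlapped with any of the other 5 strains or with each other. The step from A/J, the neighbour above in mean log2 CPM, to PWK/PhJ and that from PWK/PhJ to WSB/EiJ both passed (exact permutation tests, adjusted p = 0.0346 and 0.028). Against C57BL/6J the difference was -4.80 ± 0.54 (log2, SE) in PWK/PhJ and -7.74 ± 1.04 in WSB/EiJ (limma-voom, adjusted p = 8.97e-13 and 1.02e-09), the latter resting on very few reads. H2-Aa in the same PWK/PhJ livers was 0.56 ± 0.25 higher than in C57BL/6J by limma-voom (adjusted p = 0.0486). The exact permutation test of the same pair did not pass (adjusted p = 0.548), and the 2 groups overlapped. H2-Aa was thus not low in PWK/PhJ, so the low value there belonged to H2-Eb1 and not to all class II chains. Whether H2-Eb1 reads of these strains failed to align to the C57BL/6J sequence was not tested.

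H2-Ea-ps, the I-E alpha chain gene, followed another pattern of strains. C57BL/6J, 129S1/SvImJ and PWK/PhJ mice had 0 to 3 reads each on either diet. On CD it was at 22.2 ± 7.04 CPM in A/J (n = 5), 21.7 ± 4.17 in DBA/2J (n = 6), 18.4 ± 1.88 in CAST/EiJ (n = 7) and 9.21 ± 1.74 in WSB/EiJ (n = 6), with at least 303 reads in each of those mice. The 7 strains thus fell into 4 that had reads on the alpha chain gene and 3 with almost none. A/J, DBA/2J and CAST/EiJ had both I-E chains above 10 CPM, WSB/EiJ had the alpha chain with 2 to 8 reads on the beta chain, C57BL/6J and 129S1/SvImJ had the beta chain with almost no alpha chain, and PWK/PhJ was low for both.

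Compared with C57BL/6J on CD, all 8 members were lower in WSB/EiJ (53.8% of all genes tested differed in either direction), by 1.29 for Cd74 to 7.74 for H2-Eb1 on the log2 scale. In CAST/EiJ 4 members were lower (65.9% of all genes), namely H2-DMa, H2-DMb1, Cd74 and Ciita, by 1.09, 1.07, 0.65 and 1.02. In 129S1/SvImJ 4 were lower (48.9%), H2-Aa by 0.60 and the 3 H2-DM genes by 0.75 to 1.42. PWK/PhJ differed in 3 (58.0%), H2-Aa, H2-Eb1 and H2-DMb1. A/J and DBA/2J each differed in 1 of 8 (38.4% and 39.7%), which was H2-DMb1 in both, lower by 1.29 ± 0.32 and 1.11 ± 0.29. Outside WSB/EiJ, these counts were near or under the share of all genes that differed. In 129S1/SvImJ the count was 8 with edgeR, 1 with cohort as an additive term and 2 without C57BL/6J CD replicate 1, and in DBA/2J it was 4 with DESeq2. Without PWK/PhJ CD replicate 5 the count in PWK/PhJ was 5, and without A/J WD replicate 3 that in DBA/2J was 2.

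H2-DMb1 was lower than in C57BL/6J in each of the other 6 strains, from -0.75 in 129S1/SvImJ to -3.05 in WSB/EiJ (limma-voom, adjusted p = 0.0104 and 3.19e-09). Its near copy H2-DMb2 was lower only in 129S1/SvImJ (-1.42 ± 0.31, adjusted p = 6.87e-05) and WSB/EiJ (-2.09 ± 0.38, adjusted p = 1.97e-06), with values of -0.04 to 0.51 in the other 4 strains. On CD, H2-DMb1 was at 6.26 ± 4.05 CPM in C57BL/6J (n = 8) and H2-DMb2 at 1.33 ± 0.537, while in DBA/2J (n = 6) they were at 2.63 ± 0.883 and 1.80 ± 0.274. These are differences within 1 gene between strains, and the shared sequence of the pair and the reference alleles limit them.

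Reads on each gene were also divided by those on Cd74 in the same library. For H2-Aa, whose log2 CPM had an SD of 0.88 among C57BL/6J mice on CD, the log2 ratio on CD was -0.75 ± 0.16 in C57BL/6J (n = 8), -0.82 ± 0.08 in 129S1/SvImJ (n = 7), -1.06 ± 0.05 in DBA/2J (n = 6) and -0.29 ± 0.20 in PWK/PhJ (n = 6). Each ratio was compared with that in C57BL/6J by an exact permutation test, adjusted over 42 comparisons. In 129S1/SvImJ, which shares the b haplotype, the H2-Aa, H2-Ab1 and H2-Eb1 ratios differed from C57BL/6J by -0.07, 0.07 and 0.03 (exact permutation test, adjusted p = 0.331, 0.312 and 0.714). Its H2-DMa and H2-DMb2 ratios did pass, with differences of -0.35 and -0.87 (adjusted p = 0.00738 and 0.00761). In A/J the H2-Aa, H2-Ab1 and H2-Eb1 ratios were lower by 0.25, 0.36 and 0.67 (adjusted p = 0.00653, 0.00363 and 0.00363). The H2-Aa ratio did not pass in WSB/EiJ or CAST/EiJ either (adjusted p = 0.0734 and 0.0615). Whether these ratios follow the haplotype was not tested.

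**Figure D2:**
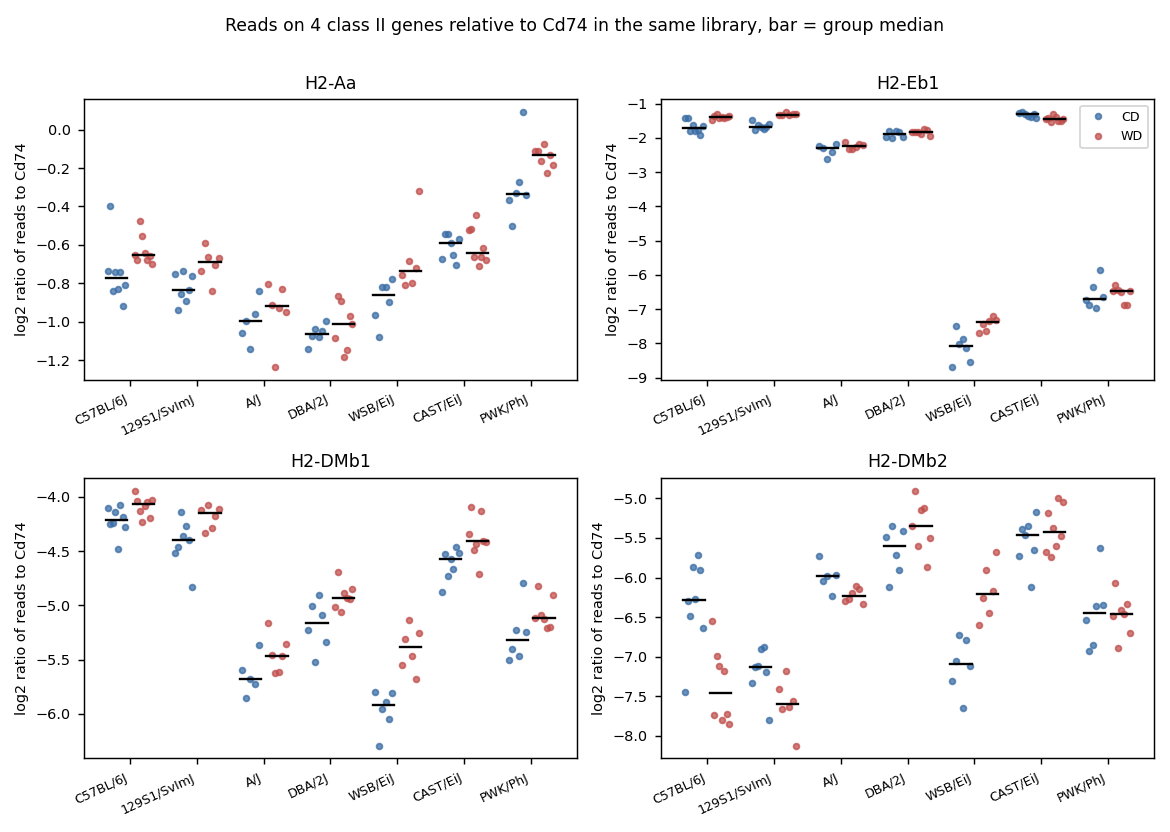
Log2 ratio of reads on 4 class II genes to reads on Cd74 in the same library, by strain and diet, with 1 point per mouse and a bar at the group median. Mice of a group lie close together for H2-Aa, and the H2-Aa ratio on CD averages -0.29 in PWK/PhJ against -0.75 in C57BL/6J.

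The diets were compared within each strain. In 129S1/SvImJ all 8 members were upregulated on WD, where 14.5% of all genes tested rose. The median change was 1.80 on the log2 scale (range 1.26 to 2.29), and for each of the 8 genes every WD mouse (n = 6) lay above every CD mouse (n = 7), as for 9.23% of all genes tested.

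In 129S1/SvImJ, H2-Aa was at 30.8, 36.1 and 53.1 CPM on CD (lowest, median and highest mouse) and at 109, 134 and 172 on WD. H2-Eb1 went from 17.2, 20.5 and 32.3 CPM to 71.3, 85.7 and 123, a log2 difference of 2.00 ± 0.27 (limma-voom, adjusted p = 1.13e-08). The I-A and I-E chains thus rose 3.45-fold to 4.00-fold. Cd74 was at 57.1, 69.3 and 89.5 CPM on CD and at 181, 208 and 307 on WD, 3.16-fold higher (adjusted p = 1.85e-06). H2-DMa rose from 2.00, 2.57 and 3.15 CPM to 7.61, 8.94 and 11.7. The transactivator had the largest change of the 8, with Ciita at 1.11, 1.45 and 1.75 CPM on CD and 5.01, 6.94 and 8.14 on WD (log2 difference 2.29 ± 0.29, adjusted p = 2.56e-09). H2-DMb2 had the smallest, from 0.337, 0.475 and 0.585 CPM to 0.815, 1.17 and 1.53 (1.26 ± 0.33, adjusted p = 0.00186). Both 129S1/SvImJ cohorts showed the rise, with a median difference over the 8 genes of 1.49 in one and 2.09 in the other.

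**Figure D3:**
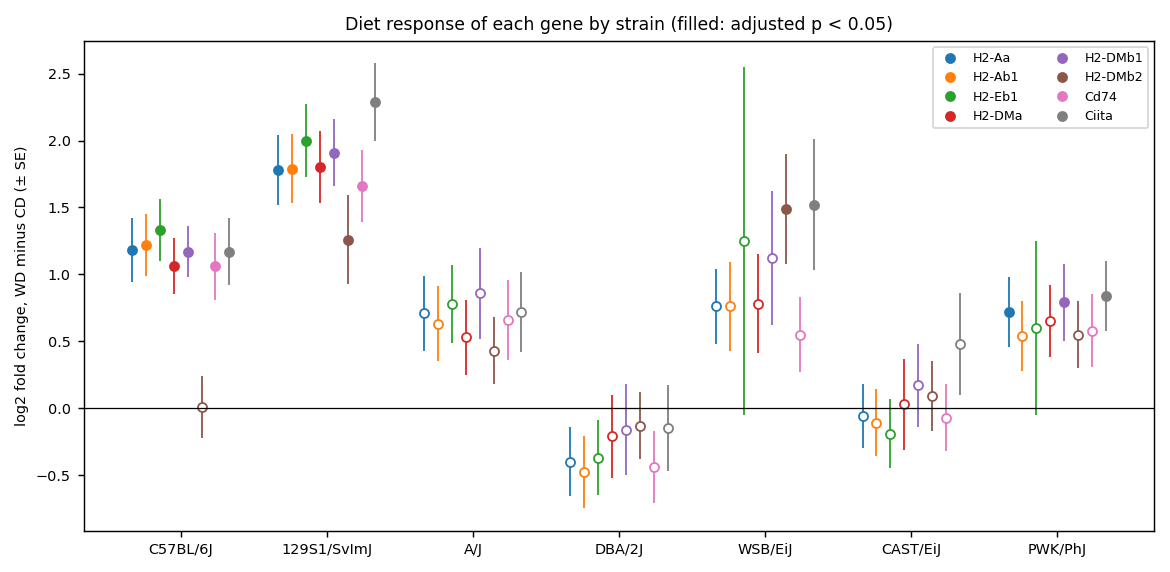
Log2 fold change on WD against CD of each class II gene in each strain, with its standard error, where filled points passed an adjusted p of 0.05. All 8 genes are filled in 129S1/SvImJ, 7 in C57BL/6J, 3 in PWK/PhJ and 2 in WSB/EiJ.

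In C57BL/6J 7 of 8 members were upregulated on WD (14.3% of all genes rose), by 1.06 to 1.33, and the exception was H2-DMb2. Cd74 was at 55.6, 96.0 and 256 CPM on CD and at 117, 217 and 309 on WD (log2 difference 1.06 ± 0.25, adjusted p = 5.74e-04). H2-Eb1 had the largest change, from 15.1, 29.4 and 95.6 CPM to 41.8, 82.2 and 126 (1.33 ± 0.23, adjusted p = 5.09e-06). H2-DMb2 was at 0.708, 1.31 and 2.17 CPM on CD and at 0.736, 1.23 and 2.41 on WD, a difference of 0.01 with a 95% interval of -0.45 to 0.47. The diet groups overlapped for each of the 8 genes in C57BL/6J, where every WD mouse lay above every CD mouse for 0.806% of all genes. Over the 8 genes the median difference was 0.52 in one cohort and 1.63 in the other, and without the CD mouse with the highest levels the same 7 genes rose by 1.23 to 1.56.

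PWK/PhJ showed 3 members upregulated (15.1% of all genes rose), H2-Aa by 0.72 ± 0.26, H2-DMb1 by 0.79 ± 0.29 and Ciita by 0.84 ± 0.26 (limma-voom, adjusted p = 0.0294, 0.0287 and 0.0102). Cd74 was at 36.0, 131 and 159 CPM on CD and at 122, 164 and 188 on WD (0.58 ± 0.27, adjusted p = 0.102). The lowest CD mouse (replicate 5) stood apart: its Cd74 of 36.0 CPM compared with 114 to 159 in the other 5, and its summed Kupffer cell markers were at 33.6 CPM against 137 to 239, its monocyte and macrophage markers at 23.5 against 58.1 to 98.2, and its endothelial markers at 174 against 277 to 335. Without that mouse none of the 8 passed, and the values of H2-Aa, H2-DMb1 and Ciita were 0.48, 0.57 and 0.59, while the count was 5 without A/J WD replicate 3, which shares the fit. The median over the 8 genes was 0.48 in one cohort and 0.93 in the other. The part of those cells in the difference was not tested.

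WSB/EiJ, which had the lowest levels on CD, showed 2 members upregulated (4.97% of all genes rose). Ciita went from 0.279, 0.426 and 0.837 CPM to 0.947, 1.27 and 1.67 (1.52 ± 0.49, adjusted p = 0.0365), and H2-DMb2 from 0.156, 0.328 and 0.471 CPM to 0.585, 0.923 and 1.02 (1.49 ± 0.41, adjusted p = 0.0115). For both genes every WD mouse (n = 6) was above every CD mouse (n = 6), as for 2.5% of all genes tested. Cd74 was at 26.7, 40.9 and 57.1 CPM on CD and at 31.5, 63.5 and 84.5 on WD, overlapping, with a difference of 0.55 ± 0.28 (adjusted p = 0.24). H2-Eb1, at 7 to 23 reads a mouse even on WD, did not pass, with a difference of 1.25 and a 95% interval of -1.30 to 3.80, although 5 of the 6 WD mice lay above the highest CD mouse and the cohorts gave 1.19 and 0.84. The median difference over the 8 genes was 0.95, with 1.13 in one cohort and 0.27 in the other, and a fit of WSB/EiJ alone called 6 of the 8.

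In A/J none of the 8 passed (4.39% of all genes rose), with differences of 0.43 to 0.86 and 6 genes at an unadjusted p under 0.05, and the median over the 8 genes was 0.69 in one cohort and 0.28 in the other. By other tools on the same counts more passed, 5 with edgeR and 6 with DESeq2. One WD mouse (replicate 3) stood apart, with Cd74 at 613 CPM against 107 to 165 in the other 5 WD mice and 70.7 to 159 in the CD mice. In that mouse the Kupffer cell markers summed to 430 CPM against 178 to 289, the monocyte and macrophage markers to 407 against 157 to 232, and the B cell markers to 12.4 against 3.24 to 7.35, and their part was not tested. Without it the 8 differences were 0.058 to 0.53, and none passed.

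DBA/2J and CAST/EiJ had no member called and the lowest median changes of the 7 strains. In DBA/2J none of the 8 passed (10.2% of all genes rose), and the 8 differences were all negative, from -0.13 to -0.48. Cd74 was at 65.4, 97.4 and 113 CPM on CD and 47.3, 71.4 and 103 on WD, with an interval of -0.96 to 0.08, and the cohort medians over the 8 genes were -0.12 and -0.46. In CAST/EiJ none passed either (9.77% of all genes rose), with a median difference of -0.02. Cd74 was at 50.8, 64.5 and 80.0 CPM on CD and 41.5, 59.1 and 114 on WD, with an interval of -0.56 to 0.42, whose upper end lies under the change of 1.06 in C57BL/6J. The CAST/EiJ cohorts did not go one way, with medians over the 8 genes of -0.64 in one that had 1 CD mouse, 0.53 in another, where all 8 were higher on WD, and -0.01 in the last. By limma-voom 0 of 8 had an unadjusted p under 0.05 in either strain, and edgeR and DESeq2 called 0 as well.

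The diet effect itself differed between strains for each of the 8 genes (limma-voom F test of the diet by strain interaction, adjusted p from 9.10e-07 for H2-Eb1 to 0.00865 for H2-DMb2), as it did for 37.5% of all genes. Set against the mean effect of the other 6 strains, 129S1/SvImJ had a larger rise for 7 of 8 members (6.28% of all genes differed), by 1.25 to 1.53. DBA/2J had a lower effect for 7 of 8 (7.77%), by 1.02 to 1.33. CAST/EiJ had a lower effect for 3 of 8 (14.5%), which were H2-Aa, H2-Ab1 and H2-Eb1, and this count was 0 with no filter on low counts, 1 with cohort within strain as a term and 6 with DESeq2. No member passed this test in C57BL/6J (4.69%), A/J (0.466%), WSB/EiJ (0.947%) or PWK/PhJ (16.3%). H2-DMb2 passed in none of the 7 contrasts, with 0.86 ± 0.35 in 129S1/SvImJ (adjusted p = 0.128) and -0.77 ± 0.27 in DBA/2J (adjusted p = 0.0663). These 7 contrasts use the same mice and are not independent of each other.

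The ratio to Cd74 showed which members moved out of step with the invariant chain. WD was compared with CD by an exact permutation test, adjusted over 49 comparisons. In 129S1/SvImJ Ciita rose more than Cd74, with the log2 ratio going from -5.64 ± 0.30 on CD (n = 7) to -5.02 ± 0.17 on WD (n = 6; exact permutation test, adjusted p = 0.0177), and so did H2-Eb1, from -1.64 ± 0.10 to -1.31 ± 0.03 (adjusted p = 0.0177). In WSB/EiJ the ratios of H2-Aa, H2-Eb1, H2-DMb1, H2-DMb2 and Ciita all rose, by 0.93 for H2-DMb2 and 0.96 for Ciita. By the exact permutation test the adjusted p was 0.0482 for H2-Aa, 0.0355 for H2-Eb1 and 0.0177 for the others. On CD these ratios rested on 2 to 8 reads a mouse for H2-Eb1, 6 to 18 for H2-DMb2 and 11 to 32 for Ciita. The diet difference of H2-Eb1 itself did not pass there. H2-DMb2 moved the other way in C57BL/6J, where its ratio was -6.33 ± 0.55 on CD and -7.37 ± 0.48 on WD (n = 8 each, exact permutation test, adjusted p = 0.0185), while the H2-Ab1 and H2-Eb1 ratios rose by 0.17 and 0.28. In CAST/EiJ the H2-Eb1 ratio was lower on WD by 0.12.

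Within groups, mice that were high for one member were high for the others. After subtraction of each group's mean, log2 CPM of Cd74 over the 93 mice had a Pearson r of 0.972 with H2-Aa, 0.967 with H2-Ab1, 0.942 with H2-Eb1, 0.938 with H2-DMb1, 0.934 with H2-DMa, 0.833 with Ciita and 0.739 with H2-DMb2. These values describe likeness between genes read from the same libraries. The genes outside the 8 most like Cd74 by this measure were Ctss (r = 0.859), the protease that trims the invariant chain, then C1qb (0.818), C1qc (0.810), Slc11a1 (0.810), Tyrobp (0.809), C1qa (0.806), Cybb (0.805) and Fcgr3 (0.804). C1qa, C1qb and C1qc encode complement C1q, a product of macrophages, and Tyrobp, Cybb and Fcgr3 are myeloid genes.

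**Figure D4:**
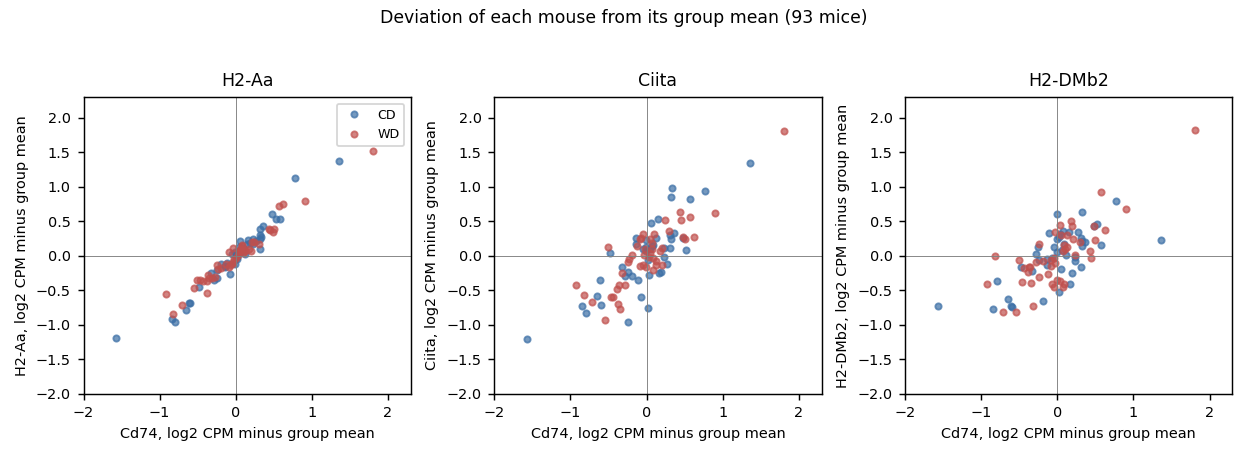
Deviation of each of the 93 mice from its group mean in log2 CPM, with Cd74 on the x axis and another class II gene on the y axis of each panel. H2-Aa lies close to a line (r = 0.972), and H2-DMb2 scatters more widely (r = 0.739).

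By the same measure H2-DMb2 was most like Cd74 (r = 0.739), H2-Aa (0.737), H2-DMb1 (0.734) and Ctss (0.726). Its r with the mean of 8 B cell markers was lower, 0.584 over the 93 mice (rho 0.543), while that of the other 7 members lay between 0.256 and 0.350. B cell markers were not the list most like it: its r was 0.629 with 10 dendritic cell markers and 0.563 with 11 monocyte and macrophage markers. For the other 7 members those values lay at 0.546 to 0.615 and at 0.466 to 0.560. With the 7 T cell markers the r of H2-DMb2 was 0.536 and that of Cd74 was 0.620. In C57BL/6J, where H2-DMb2 was the member not called, the B cell marker sum was at 6.49, 8.61 and 13.6 CPM on CD and at 4.65, 6.02 and 11.1 on WD, and of 8 markers none rose and 1 fell. In 129S1/SvImJ it was at 2.11, 3.01 and 4.23 CPM on CD and 3.87, 4.17 and 6.18 on WD, with 1 of 8 markers called, Blk, where 14.5% of all genes rose. The part of B cells in the level of H2-DMb2 was not tested.

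Among class II genes outside the 8, 4 were measured above the filter. H2-Eb2, a lowly expressed relative of H2-Eb1, had 0 to 2 reads a mouse in 129S1/SvImJ on CD and 9 to 24 on WD (limma-voom, adjusted p = 1.05e-09). It was also upregulated in PWK/PhJ, by 1.52 ± 0.29, and in C57BL/6J, by 0.82 ± 0.26 (adjusted p = 1.62e-05 and 0.0127), and CAST/EiJ mice had 0 or 1 read. H2-Ea-ps was upregulated in A/J by 0.80 ± 0.18 and in WSB/EiJ by 0.71 ± 0.21 (adjusted p = 0.00128 and 0.0172). Of the chains of H2-O, H2-Ob rose in 129S1/SvImJ by 0.89 ± 0.30 and in WSB/EiJ by 1.49 ± 0.45 (adjusted p = 0.0194 and 0.0236), and H2-Oa passed in no strain. In C57BL/6J neither H2-Oa (-0.27 ± 0.33) nor H2-Ob (-0.16 ± 0.19) passed, as for H2-DMb2.

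Of the 7 factors that bind class II promoters, none rose and 2 fell in 129S1/SvImJ (13.6% of all genes fell there), Rfx5 from a median of 8.72 to 6.78 CPM (-0.35 ± 0.10, adjusted p = 0.00556) and Nfyc from 23.6 to 19.1 CPM (-0.34 ± 0.05, adjusted p = 5.45e-08), and in C57BL/6J 1 rose and 4 fell (11.9% of all genes fell). Of 7 genes of the interferon gamma axis 3 rose in 129S1/SvImJ (14.5% of all genes rose), the receptor chains Ifngr1 and Ifngr2 by 0.42 and 0.52 and Irf1 by 0.68. In C57BL/6J 1 rose (14.3%), in PWK/PhJ 2 (15.1%) and in CAST/EiJ 1 (9.77%), which was Ifngr2 by 0.45 (limma-voom, adjusted p = 0.00601). The counts of 1 were near the share of all genes. The endosomal genes moved more widely, with 7 of 8 up in both C57BL/6J and 129S1/SvImJ and 4 of 8 in PWK/PhJ. In 129S1/SvImJ Cd83, which slows the turnover of surface class II, went from a median of 0.659 to 3.44 CPM (2.23 ± 0.32), Ctss from 23.6 to 55.1 (1.29 ± 0.23) and the reductase Ifi30 from 15.3 to 28.5 (0.79 ± 0.15). All 5 costimulation genes rose in 129S1/SvImJ, and 4 of the 5 did in C57BL/6J and PWK/PhJ. Among them was Cd40, by 1.73, 0.58 and 1.48 in that order.

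MHC class I presentation genes were compared as the parallel pathway, which most cells use. In 129S1/SvImJ 5 of 11 rose with a median of 0.29, against 8 of 8 and 1.80 for class II. Of all genes 14.5% rose there, and their median was close to 0. Psmb9, a subunit of the immunoproteasome, rose in 6 of the 7 strains, including CAST/EiJ (1.10 ± 0.24, adjusted p = 4.19e-04) and DBA/2J (0.80 ± 0.19, adjusted p = 0.00147), in which no class II member rose. Tap1, a peptide transporter, rose in C57BL/6J, 129S1/SvImJ, DBA/2J and CAST/EiJ. In PWK/PhJ none of the 11 rose.

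Cell markers moved with the class II genes in 129S1/SvImJ. There 6 of 10 dendritic cell markers, 10 of 11 monocyte and recruited macrophage markers, 3 of 6 Kupffer cell markers and 6 of 7 T cell markers rose, with medians of 1.22, 1.54, 0.55 and 1.24 (14.5% of all genes rose). Itgax, a marker of dendritic cells that recruited macrophages also express, went from 0.340 to 0.537 CPM on CD to 4.28 to 11.5 on WD. The summed dendritic cell markers ranged from 10.1 to 11.7 CPM on CD and from 16.7 to 26.7 on WD, and the summed monocyte and macrophage markers from 99.1 to 171 and from 230 to 350, in neither case overlapping. None of these marker lists had a sum of 0 in any mouse, and their part in the class II rise was not tested.

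PWK/PhJ had as many monocyte and macrophage markers up as 129S1/SvImJ, 10 of 11 with a median of 1.42, and their sum went from 23.5 to 98.2 CPM on CD to 147 to 274 on WD. Its dendritic cell markers rose in 2 of 10 cases (median 0.20) and its T cell markers in 1 of 7, near the share of all genes that rose (15.1%). Its class II genes rose in 3 of 8 with a median of 0.62. Gpnmb, Trem2 and Cx3cr1, genes of recruited macrophages, rose in PWK/PhJ by 6.46, 6.01 and 3.28 and in 129S1/SvImJ by 6.48, 4.52 and 3.52. The difference between these 2 strains in class II response was not tested on its own. C57BL/6J stood between them in class II, with 9 of 11 monocyte and macrophage markers and 6 of 10 dendritic cell markers up and no T cell marker called (14.3% of all genes rose). Its monocyte and macrophage marker sum overlapped between diets, at 184 to 688 CPM on CD and 282 to 664 on WD. The 688 CPM belonged to CD replicate 2, and the other CD mice lay at 184 to 346. In that mouse the dendritic cell markers were at 44.3 CPM against 14.4 to 21.5 and the cholangiocyte markers at 66.5 against 9.03 to 21.7. Its Kupffer cell markers were lower, at 153 against 195 to 413. WD replicate 3 also had high cholangiocyte markers, at 47.5 against 10.6 to 14.0. No fit left either mouse out.

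In the remaining strains the marker lists were mostly uncalled. In DBA/2J no dendritic, Kupffer, monocyte or T cell marker rose and 1 dendritic cell marker fell. In CAST/EiJ 1 of 11 monocyte and macrophage markers, 1 of 6 Kupffer and 1 of 7 T cell markers rose, counts near the share of all genes that rose (9.77%). WSB/EiJ had 3 of 10 dendritic cell and 4 of 11 monocyte and macrophage markers up (4.97% of all genes rose), beside its 2 class II genes. Of 5 hepatocyte markers, 1 to 4 fell in each strain and 1 rose in DBA/2J, with Alb lower by 0.95 in WSB/EiJ and by 0.26 in 129S1/SvImJ. Lyve1, an endothelial marker, rose by 1.51 in 129S1/SvImJ and by 1.21 in C57BL/6J, and Col1a1, a collagen gene of stellate cells, by 3.44 and 1.93, and by 4.01 in PWK/PhJ (adjusted p = 5.23e-09). Cholangiocyte markers passed in none of 4 cases in 129S1/SvImJ and in 3 of 4 in PWK/PhJ, where 15.1% of all genes rose.

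**Figure D5:**
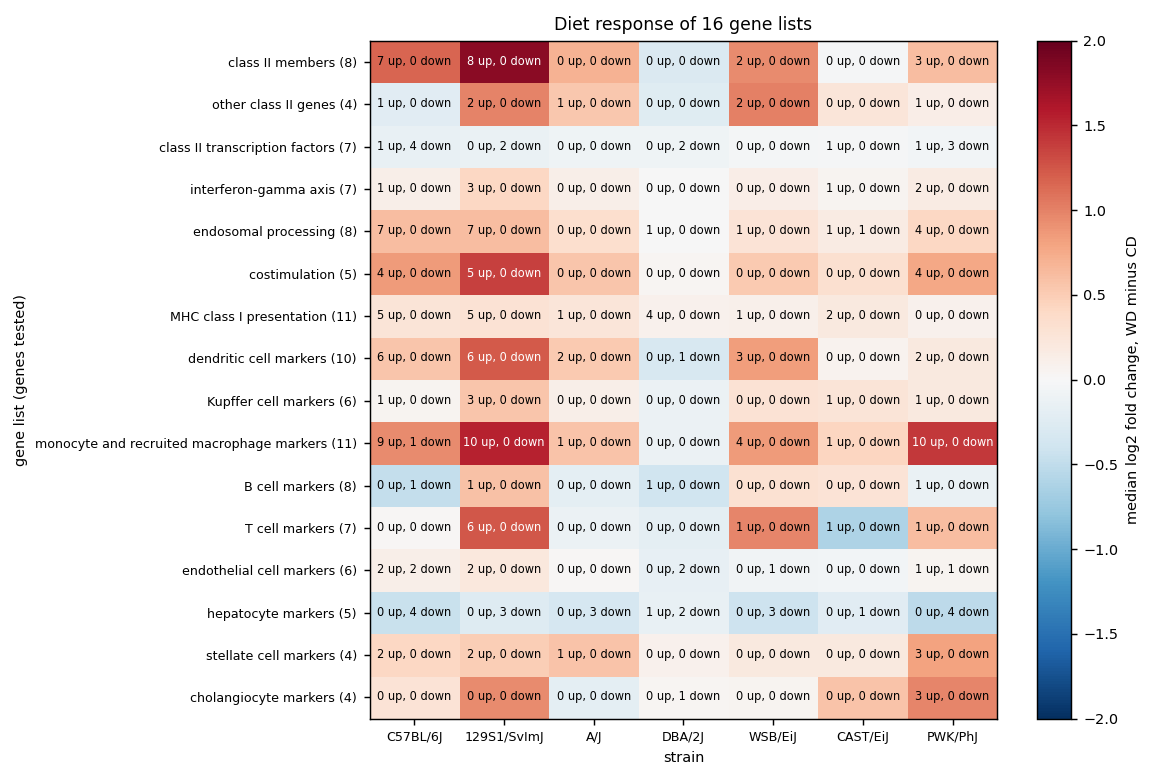
Median log2 fold change on WD against CD of 16 gene lists in 7 strains, by colour, with the number of genes tested beside each list and, in each cell, the number that rose and fell at an adjusted p under 0.05. The class II members reach 0.62 in PWK/PhJ, 0.69 in A/J, 0.95 in WSB/EiJ, 1.17 in C57BL/6J and 1.80 in 129S1/SvImJ, and lie at -0.29 in DBA/2J and -0.02 in CAST/EiJ.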

How the data were processed

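Liver RNA of 93 mice was sequenced on a BGISEQ instrument by the authors, who aligned every library, whatever its strain, to the C57BL/6J genome (GRCm38/mm10) and counted reads per gene with STAR 2.7.1a. The deposited values are raw counts per Ensembl gene. The annotation release, read length and strand setting of the counting are not given in the sources used here, and lines of the table that name no gene (unmapped, multimapping, no feature and ambiguous reads) were left out of library sizes. No column of other samples was used. The members and the gene lists were chosen with earlier results of these data known.

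Genes were filtered with filterByExpr at a minimum count of 10, leaving 19110 of 53465, and scaled with TMM factors (0.81 to 1.27, edgeR 4.0.16). The study's methods name limma-voom on TMM-normalized counts, and here limma-voom (limma 3.58.1, R 4.3.3) was fitted with 14 group means over all mice, a design chosen for this work. Contrasts were called at a Benjamini-Hochberg adjusted p of 0.05 over all genes tested. Neighbouring strains were compared on log2 CPM (prior count 2), and ratios to Cd74 as log2 of counts plus 0.5, with two-sided exact permutation tests adjusted within each family. In simulated data, 200 genes were changed 2-fold between the diets in PWK/PhJ. Of these, limma-voom recovered 152, with 14 false calls among 18937 genes. Whether the class II members, which varied widely within some groups, would be recovered at that rate was not tested.

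Groups were taken from the labels, and replicates are separate mice. Named genes are the 8 members, detected class II relatives, up to 3 called genes per list with the largest change in the strain with the largest median class II change, and the 8 genes most like Cd74. Blk and other list genes are named by that rule. Alternatives were edgeR and DESeq2 1.42.0, other filters and scalings, cohort, RNA integrity, sample quality weights, separate fits and mice left out. Between 40020424 and 49894856 reads per mouse fell on genes, and a member at a few reads, such as H2-Eb1 in WSB/EiJ, has little precision.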

Additional observations from a re-analysis of the deposited data

Results flagged for a closer look

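In 8 mice, a class II gene lay far from the rest of its group by Dixon's test. Of 138 pairs of gene and group checked, 18 were picked out, where chance picks about 1 in 20, and the genes of 1 mouse are not independent. A/J WD replicate 3 was picked out as the highest of its group for 7 genes, with H2-Aa at 260.0 CPM (55.2 to 94.5 in the others), H2-Ab1 at 157, H2-Eb1 at 123, H2-DMa at 23.1, H2-DMb1 at 12.4, H2-DMb2 at 8.38 and Cd74 at 613. The same mouse was also the highest for Ciita, at 13.8 CPM against 2.28 to 4.65, which was not picked out. PWK/PhJ CD replicate 5 was the lowest of its group for H2-Aa at 38.4 CPM (93.7 to 127 in the others), H2-Ab1 at 25.5, H2-DMa at 1.67 and Cd74 at 36.0. CAST/EiJ WD replicate 5 was the highest for H2-Aa at 69.4 CPM and H2-Ab1 at 51.6, and PWK/PhJ WD replicate 6 the lowest for H2-Ab1 at 57.3. Among the relatives, C57BL/6J CD replicate 2 was the highest for H2-Eb2 at 0.538 CPM and C57BL/6J WD replicate 3 for H2-Ob at 3.04. CAST/EiJ WD replicate 1 and PWK/PhJ CD replicate 4 were the lowest for H2-Ob, at 0.0724 and 0.522 CPM.

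The diet effect differed between the 7 strains for each member in the limma-voom F test. The adjusted p was 2.48e-05 for H2-Aa, 1.03e-05 for H2-Ab1, 9.10e-07 for H2-Eb1, 3.45e-04 for H2-DMa, 1.53e-04 for H2-DMb1, 0.00865 for H2-DMb2, 1.45e-04 for Cd74 and 1.32e-04 for Ciita.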

How the results depend on the processing

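The counts of members called up in 129S1/SvImJ and C57BL/6J, and the count of 8 in the diet by strain test, stayed within 1.5 times their value in all alternatives run. Members up on WD in A/J numbered 5 with edgeR, 6 with DESeq2 and 3 with sample quality weights. In WSB/EiJ they numbered 5 with DESeq2, 1 with at least 10 counts in every mouse (which tests fewer members) and 6 in a separate fit, and in PWK/PhJ 6 in a separate fit and 0 to 5 with single mice left out. The count of members whose effect differed from the other strains was 0 to 1 in C57BL/6J with single mice left out, and in CAST/EiJ 6 with DESeq2, 0 with no filter and 1 with cohort within strain. Against C57BL/6J on CD it was 8 with edgeR, 8 with DESeq2, 1 with cohort as an additive term and 2 to 5 with mice left out in 129S1/SvImJ. It was 2 with edgeR, DESeq2 or quality weights in A/J, and 3, 4 and 2 by those settings and 1 to 2 with mice left out in DBA/2J. In CAST/EiJ it was 2 with cohort as an additive term, and in PWK/PhJ 1 with at least 10 counts, 5 with quality weights and 2 to 5 with mice left out. The cause of these changes was not tested.

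Of the single genes, only small differences that had not passed changed sign. H2-DMb2 in C57BL/6J on WD was -0.014 with edgeR, -0.0017 with DESeq2, -0.022 with cohort and -0.0013 with RNA integrity as a covariate. In CAST/EiJ on WD, with mice left out, H2-DMa ranged from -0.07 to 0.026 and H2-DMb2 from -0.011 to 0.088. A/J against C57BL/6J gave H2-Aa 0.038 with cohort and 0.11 with quality weights (-0.23 to 0.099 with mice left out), H2-Ab1 -0.35 to 0.011 with mice left out, H2-DMa 0.14 with cohort and 0.019 with weights (-0.22 to 0.052), and Cd74 -0.013 with DESeq2. DBA/2J against C57BL/6J gave Cd74 0.039 with weights (-0.14 to 0.065) and Ciita -0.14 with edgeR and -0.15 with DESeq2, and PWK/PhJ gave H2-DMb2 0.21 with weights (-0.043 to 0.11).

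The number of all genes called moved too. Genes up on WD numbered 1904 in A/J with quality weights (1411 in a separate fit) against 839, 1460 in WSB/EiJ against 950, and in separate fits 1363 in C57BL/6J against 2728 and 1100 in CAST/EiJ against 1867. With no filter, the F tests between strains called 28800 genes on CD and 30245 on WD against 17913 and 17952, and 11772 and 11764 with at least 10 counts. Against C57BL/6J, no filter gave 18463 in WSB/EiJ against 10275 and 22377 in CAST/EiJ against 12595, at least 10 counts gave 8353 in CAST/EiJ and 7105 in PWK/PhJ against 11078, and cohort as a term gave 5000 in DBA/2J against 7584. With no filter the median of all genes in these contrasts shifted by 0.101 in 129S1/SvImJ, 0.126 in WSB/EiJ and 0.169 in CAST/EiJ. Genes whose diet effect differed from the other strains numbered, with weights, 1361 in C57BL/6J against 897, 2894 in 129S1/SvImJ against 1201, 563 in A/J against 89, 2426 in DBA/2J against 1485 and 604 in WSB/EiJ against 181, and with DESeq2 153 in A/J and 379 in WSB/EiJ. In A/J that number was 35, 56, 95, 48 and 43 without A/J CD replicates 1, 2, 3, 4 and 5 in turn.

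No paired analysis was possible because the replicate numbers only name mice, and nothing in the labels ties a mouse on one diet to a mouse on the other. The mice left out singly were the 5 A/J CD mice and, chosen after seeing the data, A/J WD replicate 3, PWK/PhJ CD replicate 5, CAST/EiJ WD replicate 5 and C57BL/6J CD replicate 1. Depth limits H2-Eb1 in WSB/EiJ (2 to 8 reads on CD) and Ciita there (11 to 32 reads).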
